A study of Mus musculus with 8 samples.

Results

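The genes described here lie in 1 stretch of proximal mouse chromosome 4, from Rab2a to Epha7 (chr4:8535644-28967499, GRCm38, a span of 20.4 Mb), which holds 67 annotated protein-coding genes. They are 45 named protein-coding genes out of 46406 entries of the deposited expression table, matched by gene symbol, and they were picked because their levels in 1 mutant line, clone 2, were lower together. The ratios of clone 2 and of clone 1 to wild type (WT) were the values in view when they were chosen, so those ratios are given as a description and carry no test. RNA was sequenced from anterior neural progenitor cells, an early forebrain model made in culture from E14 mouse embryonic stem cells. Clone 2 (labelled PE Lhx5(-109)-/- Clon2) and clone 1 (PE Lhx5(-109)-/- Clon1) each gave 2 libraries, and WT (E14) gave 4. Both mutant lines are clonal E14 derivatives in which CRISPR-Cas9 and a guide pair removed a poised enhancer of Lhx5, on chromosome 5, and which had passed through transfection, puromycin selection and isolation of single cells. The WT line carries no clone label, so that the deletion and the derivation of a clone cannot be told apart. All lines were differentiated the same way, in serum-free medium with bFgf at first and the WNT inhibitor Xav939 later.

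Neighbouring genes on a chromosome need not share a function or a regulator. Each autosomal gene is normally carried on both homologous chromosomes, and its RNA level reflects the copies present, how actively each is transcribed and how quickly the RNA decays. The genes from Rab2a to Epha7 have mixed roles: some serve nearly every cell, in membrane traffic, mitochondrial assembly, DNA repair or ubiquitin transfer, and others, such as Chd7, Pou3f2, Prdm13 and Epha7, are known from neural development. Only RNA was measured, and DNA along the stretch was not analysed here.

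The libraries met their labels at the targeted locus. Lhx5, a LIM homeodomain transcription factor gene, averaged 1.58 ± 0.448 FPKM in clone 2, 1.05 ± 0.272 FPKM in clone 1 and 16.4 ± 1.04 FPKM in WT (SD, n = 2, 2 and 4; limma adjusted p = 7.23e-06 for clone 2 and 3.6e-06 for clone 1 against WT). FPKM, the authors' unit, scales fragment counts by transcript length and sequencing depth, and it summed to 518500 to 528700 per library. All 10 anterior neural progenitor markers examined, among them Sox1, Six3 and Otx2, averaged at least 1 FPKM in each line. Their summed level was 369 to 403 FPKM in clone 2, 452 to 503 FPKM in clone 1 and 484 to 550 FPKM in WT. Otx2 and Sox2 made up most of each sum, and single markers moved in different ways. In clone 2, Sox1 and Nes lay above every WT library, and Fezf2, Hesx1, Lhx2, Otx2, Pax6, Rax, Six3 and Sox2 lay below. Six3 had 8.76 and 3.86 FPKM in clone 2 and 13.2, 21.9, 15.0 and 14.1 FPKM in WT. The 7 pluripotency markers summed to 17.9 to 22.9 FPKM in clone 2, 67.7 to 74.8 FPKM in clone 1 and 28.1 to 44.3 FPKM in WT, and the 6 markers of non-neural epithelium, which include Esrp1 of the stretch, to 29.6 to 42.0, 74.7 to 87.9 and 36.8 to 54.8 FPKM in clone 2, clone 1 and WT. The 4 neuron markers found summed to 19.6 to 25.6 FPKM in clone 2, 39.0 to 42.0 FPKM in clone 1 and 33.1 to 41.0 FPKM in WT, and neural crest, mesoderm and endoderm markers to at most 2.69 FPKM per list in every library. Stmn2 made up most of each neuron sum. The part of these differences in the results on chromosome 4 was not tested. In bulk RNA, fewer cells of a type and less RNA per cell cannot be told apart.

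In clone 2 most measurable genes of the stretch stood between 0.5 and 0.7 of their WT level. Of the 45 genes, 35 reached a mean of 1 FPKM over the 8 libraries and were analysed across libraries. Their ratio of clone 2 mean to WT mean had a median of 0.622, with the middle of the distribution between 0.569 and 0.657, and 28 of the 35 lay between 0.5 and 0.7, against 5.08% of all 14521 genes tested. Over all genes tested the median ratio was 1.00. The replicates gave like values, with median ratios of 0.636 in clone 2 replicate 1 and 0.611 in clone 2 replicate 2.

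In 32 of the 35 genes both clone 2 libraries lay below all 4 WT libraries, where 22.7% of all genes tested did so, and in 0 did both lie above them (24.7% of all genes). Limma, a linear model with moderated variances, was fitted to log2(FPKM + 1) of all genes tested. It called 30 of the 35 lower at an adjusted p under 0.05, against a background of 6.96% of genes, and 0 higher, against 7.06%. At an unadjusted p under 0.05 it put 31 lower and 1, Pou3f2, higher. The share of all genes at that unadjusted threshold is not given here, and the adjusted shares are no background for it. The median log2 fold change was -0.60, against 0.00 over all genes. Because the genes were chosen on this comparison, nothing is read from these counts. Without clone 2 replicate 2 the count called lower was 14, while 172 of all genes were called in either direction, against 2036 with all libraries. The same median was -0.58 without that library.

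In clone 1 the same 35 genes tended to lie above WT. The median ratio of clone 1 to WT was 1.20, against 0.963 over all genes tested, and it was 1.25 in clone 1 replicate 1 and 1.12 in clone 1 replicate 2. Both clone 1 libraries were above all 4 WT libraries for 24 of the 35 genes (12.1% of all genes tested) and below them for 1, Pou3f2 (29.2%). Limma called 13 higher (background 4.16%) and 0 lower (background 11.4%). At an unadjusted p under 0.05 it put 20 higher and 1 lower, with no share over all genes given. The comparison of clone 1 with WT shares the WT libraries with the one above and was also in view when the genes were chosen. The number called higher was 8 when clone 1 replicate 2, WT replicate 1 or WT replicate 4 was left out and 7 when WT replicate 3 was. In 23 of the 35 genes clone 2 lay below and clone 1 above every WT library, as did 6.02% of all genes tested. Set against clone 1 directly, clone 2 had a median ratio of 0.524, and both clone 2 libraries lay below both clone 1 libraries for 32 of the 35 genes (27.8% of all genes tested) and above them for 2, Pou3f2 and Ccne2 (40.1%). Limma called 32 lower in clone 2 than in clone 1, against 15.0% of all genes, and Pou3f2 higher, against 24.9%. This comparison uses the clone 2 libraries on which the genes were chosen, so nothing is read from its counts.

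**Figure D1:**
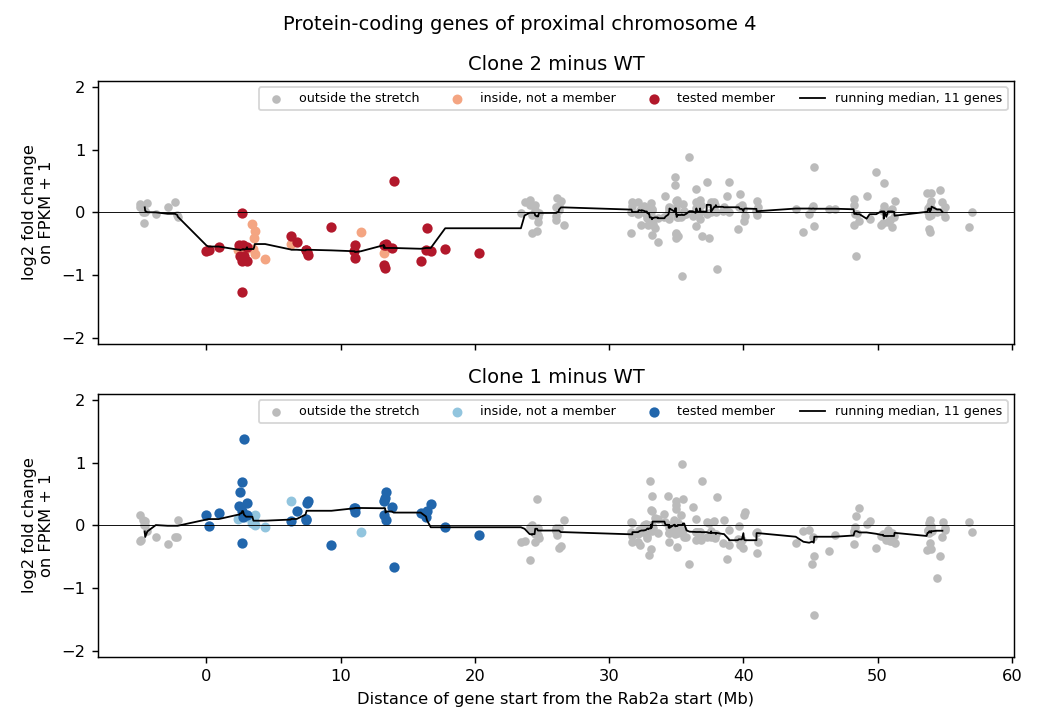
Log2 fold change on FPKM + 1 (vertical axis) of each tested protein-coding gene on the proximal part of chromosome 4 against the distance of its start from the start of Rab2a in Mb (horizontal axis), for clone 2 minus WT above and clone 1 minus WT below. Coloured points are the tested genes of the stretch, pale points its other protein-coding genes, grey points genes outside it and the line a running median. In clone 2 most points from Rab2a to Epha7 lie below 0, around the median of -0.60, and those on either side scatter about 0, and in clone 1 most of the same genes lie a little above 0.

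The ends of the lower stretch can be placed between named genes. On the side of Rab2a, the nearest tested protein-coding gene outside was Nsmaf, 2.08 Mb away, with a clone 2 to WT ratio of 0.952, and the next, Sdcbp, had 0.970. On the side of Epha7 it was Map3k7, 3.0 Mb away, with 0.996, followed by Bach2 with 1.16. Over the 10 nearest tested genes on each side the median ratios were 1.00 before Rab2a and 1.02 past Epha7, with lowest values of 0.867 for Plag1 and 0.771 for Pm20d2. The other 722 tested protein-coding genes of chromosome 4 had a median of 1.00. No tested protein-coding gene fills the gaps beside Rab2a and Epha7, so the ends are known only to within those gaps.

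Within the stretch the level of the shift hardly varied with position. The median clone 2 to WT ratio was 0.612 for the 12 tested genes nearest Rab2a, 0.619 for the 12 in the middle and 0.626 for the 11 nearest Epha7. It was 0.632 for 20 genes on the plus strand and 0.621 for 15 on the minus strand. The corresponding ratios of clone 1 to WT were 1.19, 1.21 and 1.16 by position. Sorted by expression, the 12 genes with the lowest WT levels had a median clone 2 to WT ratio of 0.622, the next 12 had 0.621 and the 11 highest had 0.626, but the lowest genes spread more, from 0.351 to 1.71.

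Other tested genes of the stretch, not among the 45 names, differed by gene type. The stretch holds 67 annotated protein-coding genes, of which 11 others reached 1 FPKM. Both clone 2 libraries were below all WT libraries in all 11 of them, against 22.7% of all genes tested, with 9 called lower by limma, against 6.96%. The genes that mark out the stretch were chosen on this same comparison and libraries, so nothing is read from these counts. Their median clone 2 to WT ratio was 0.645, from 0.442 for Triqk to 0.831 for Pdp1, a pyruvate dehydrogenase phosphatase gene. Virma, listed as 1110037F02Rik and encoding a subunit of the m6A RNA methylation complex, had 0.645, and Tmem67, a ciliary transition zone gene, had 0.598. The 8 tested processed pseudogenes, which are intronless copies of genes that lie elsewhere and can take reads of their parent genes, did not share the shift. Their clone 2 to WT ratios ran from 0.878 to 1.05 with a median of 0.990, and their clone 1 to WT median was 1.02. As an example, Gm12918 averaged 99.1 FPKM in WT with a ratio of 0.929 in clone 2, although it lies between Gdf6 and Plekhf2. The 4 other tested non-coding genes went both ways, with clone 2 to WT ratios of 0.378 for 1700123M08Rik, 0.701 for Mir684-2, 1.09 for Gm11815 and 1.42 for Gm11851, and 1700123M08Rik was the one with both clone 2 libraries below WT.

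Promoter windows show what the starts of some of these genes look like. RefSeq promoter windows (GRCm38.p6, 250 bases before to 50 after the start) were matched by symbol for 15 of the 45 genes, of which 12 were tested. Of the 7 motifs searched on both strands, GGGCGG (the GC box) was found in 9 of the 12 and CCAAT (the CCAAT box) in 5, against 35.9% and 37.9% of 27025 promoters, 1 per symbol. CCGGAAG (the ETS core) was found in 2 and the NRF1 motif in 1, against 9.12% and 0.977%, and TATAAA (the TATA box), TGACGTCA (CRE) and AAGATGGC (YY1) in 0, against 14.2%, 1.88% and 2.88%. The median GC content of the 12 windows was 66.3% and their median number of CG dinucleotides 24, against 52.7% and 7 over all promoters. The 12 belong to genes that reached a mean of 1 FPKM, while the 27025 promoters were not filtered by expression. These shares and medians therefore do not set the stretch apart from other expressed genes. Every window that held a searched motif belonged to a gene from Prdm13 to Epha7, so the Rab2a side of the stretch was hardly sampled. A match describes letters in a window and is not a binding site. The windows of 3 genes with lower levels in clone 2 and of Pou3f2, which went the other way, are shown 5′ to 3′ on the gene's strand with the searched motifs in capitals, where adjoining matches can overlap. They lie at chr4:21727451-21727750 (Ccnc, plus strand), chr4:24496201-24496500 (Mms22l, plus strand), chr4:28812881-28813180 (Epha7, plus strand) and chr4:22488317-22488616 (Pou3f2, minus strand).
Ccnc: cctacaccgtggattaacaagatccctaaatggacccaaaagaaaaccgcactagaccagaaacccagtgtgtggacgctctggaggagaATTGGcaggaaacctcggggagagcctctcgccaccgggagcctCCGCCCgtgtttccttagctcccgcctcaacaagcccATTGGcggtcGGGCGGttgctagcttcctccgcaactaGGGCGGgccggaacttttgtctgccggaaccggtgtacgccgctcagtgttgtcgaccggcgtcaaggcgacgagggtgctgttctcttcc
Mms22l: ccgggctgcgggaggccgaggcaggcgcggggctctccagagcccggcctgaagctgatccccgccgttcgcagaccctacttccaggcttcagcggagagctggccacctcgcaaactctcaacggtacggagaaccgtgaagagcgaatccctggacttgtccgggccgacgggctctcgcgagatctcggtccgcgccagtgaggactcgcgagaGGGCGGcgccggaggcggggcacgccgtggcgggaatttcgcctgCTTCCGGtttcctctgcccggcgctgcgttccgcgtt
Epha7: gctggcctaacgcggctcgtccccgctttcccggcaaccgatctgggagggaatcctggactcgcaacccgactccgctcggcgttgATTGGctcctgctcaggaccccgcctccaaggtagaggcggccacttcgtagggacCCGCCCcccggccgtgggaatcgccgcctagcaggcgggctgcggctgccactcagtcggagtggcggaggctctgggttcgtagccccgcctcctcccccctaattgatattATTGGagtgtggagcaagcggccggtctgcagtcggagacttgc
Pou3f2: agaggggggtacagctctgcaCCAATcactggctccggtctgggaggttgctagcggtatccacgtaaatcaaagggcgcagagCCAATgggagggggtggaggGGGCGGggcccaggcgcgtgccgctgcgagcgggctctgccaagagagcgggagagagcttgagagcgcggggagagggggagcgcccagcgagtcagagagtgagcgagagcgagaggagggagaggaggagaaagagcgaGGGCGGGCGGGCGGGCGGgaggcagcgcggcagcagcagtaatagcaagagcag
Ccnc, Epha7 and Pou3f2 each held GC and CCAAT boxes, and Mms22l held a GC box and an ETS core. Epha7, with a clone 2 to WT ratio of 0.626, and Pou3f2, with 1.71, thus held the same 2 of the 7 motifs.

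Of the 4 tested genes of neural development, Chd7 and Epha7 lay below all WT libraries in clone 2, and Gpr63 and Pou3f2 did not. Chd7, an ATP-dependent chromatin remodeller mutated in human CHARGE syndrome (chr4:8690406-8867659), stood at 15.7 and 16.1 FPKM in clone 2, at 27.6 and 21.8 FPKM in clone 1 and at 25.9, 23.4, 25.3 and 23.98 FPKM in WT. Both clone 2 libraries lay below all others, while the clone 1 libraries fell on either side of WT. The ratio to WT was 0.644 in clone 2 and 1.00 in clone 1. Epha7, an ephrin-A receptor that guides axons and shapes forebrain tissue (chr4:28813131-28967499), had 19.1 and 15.3 FPKM in clone 2, 27.9 and 21.5 FPKM in clone 1 and 28.7, 31.2, 25.9 and 24.2 FPKM in WT. It was again lowest in clone 2, with a ratio of 0.626, and overlapped WT in clone 1, with 0.898. Gpr63, an orphan G protein-coupled receptor gene expressed in brain, had 1.82 and 1.51 FPKM in clone 2, 2.63 and 2.79 FPKM in clone 1 and 2.56, 1.98, 1.65 and 2.62 FPKM in WT, and its clone 2 and WT libraries overlapped.

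Pou3f2, encoding the neural POU factor BRN2 (chr4:22482780-22488366), had the opposite order. It stood at 2.00 and 3.90 FPKM in clone 2, at 0.721 and 0.688 FPKM in clone 1 and at 2.19, 1.07, 1.87 and 1.79 FPKM in WT. The clone 2 libraries overlapped WT and differed from each other, and both clone 1 libraries lay below every other library. The mean ratios to WT were 1.71 in clone 2 and 0.407 in clone 1. Its relatives outside the stretch differed in their order. Pou3f3 on chromosome 1 had 4.63 and 6.77 FPKM in clone 2, 1.11 and 1.17 FPKM in clone 1 and 3.02, 1.97, 3.05 and 2.67 FPKM in WT. Limma gave a log2 fold change of 0.86 (SE 0.16, adjusted p = 0.0149) for Pou3f3 in clone 2 and -0.77 (adjusted p = 0.0168) in clone 1. Pou3f4 on chromosome X had the order of Pou3f3 and was not called by limma (adjusted p = 0.0512 in clone 2 and 0.0631 in clone 1). It stood at 2.35 and 3.78 FPKM in clone 2, at 0.812 and 0.875 FPKM in clone 1 and at 1.97, 1.17, 1.68 and 1.93 FPKM in WT. Pou3f1, elsewhere on chromosome 4, was lowest in clone 2, with 9.25 and 10.5 FPKM in clone 2, 11.03 and 10.7 FPKM in clone 1 and 12.1, 13.8, 11.8 and 11.5 FPKM in WT. Its log2 fold change by limma was -0.29 in clone 2 (SE 0.08, adjusted p = 0.0499) and -0.16 in clone 1 (adjusted p = 0.212).

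**Figure D2:**
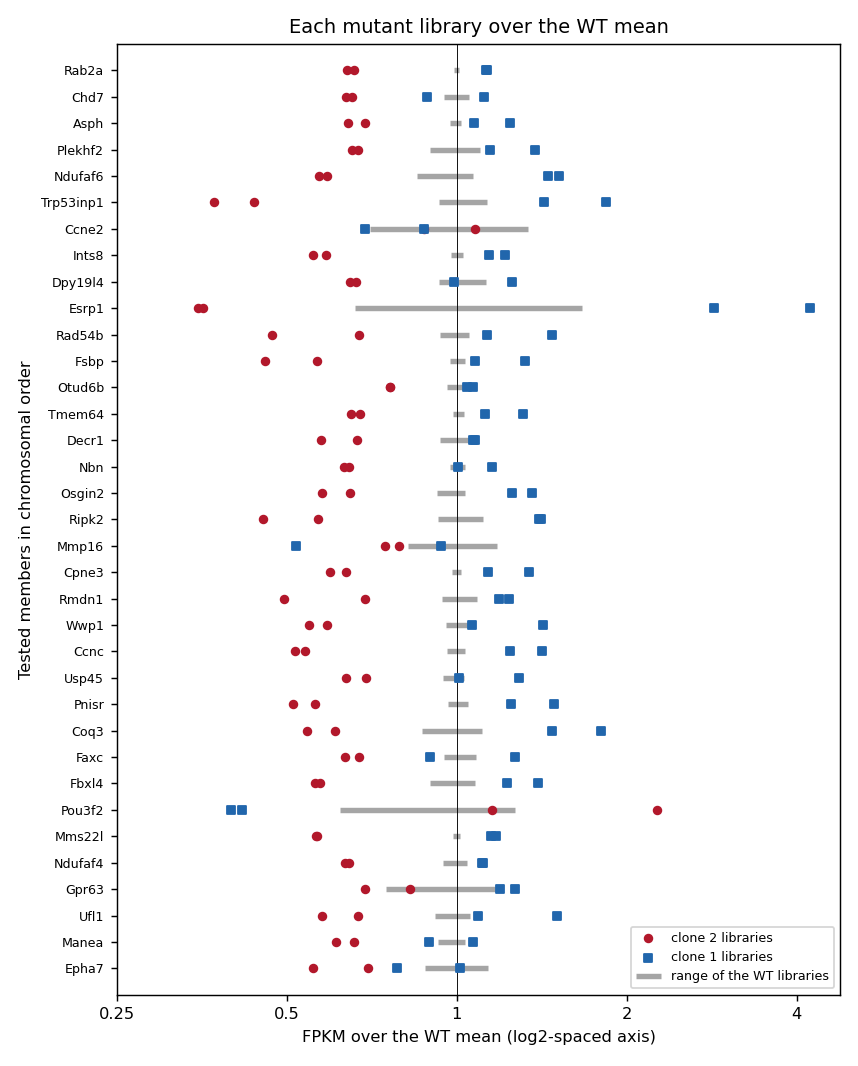
FPKM of each mutant library divided by the WT mean (horizontal axis, log2-spaced) for the 35 tested genes in chromosomal order (vertical axis). Circles are clone 2 libraries, squares clone 1 libraries, and grey bars the range of the 4 WT libraries. The clone 2 circles lie left of the WT bar in 32 genes, and Pou3f2, Ccne2 and Gpr63 are the exceptions.

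Genes of genome maintenance and the cell cycle were lower in clone 2 except for Ccne2. Nbn, encoding the NBS1 subunit of the MRE11 complex that senses DNA breaks, stood at 9.89 and 9.69 FPKM in clone 2, at 17.7 and 15.4 FPKM in clone 1 and at 15.6, 15.0, 14.9 and 15.8 FPKM in WT. Mms22l, which acts with TONSL at stalled replication forks, had 13.8 FPKM in each clone 2 library, 28.6 and 28.1 FPKM in clone 1 and 24.8, 24.1, 24.5 and 24.4 FPKM in WT. The 3 lines did not overlap for Mms22l, with ratios to WT of 0.564 in clone 2 and 1.16 in clone 1. Rad54b, a recombination helicase gene, was more scattered, with 12.3 and 8.67 FPKM in clone 2, 27.1 and 20.8 FPKM in clone 1 and 17.1, 19.3, 19.2 and 17.9 FPKM in WT. Fsbp lies within Rad54b on the same strand and had 1.07 and 0.868 FPKM in clone 2, 2.50 and 2.04 FPKM in clone 1 and 1.96, 1.84, 1.93 and 1.85 FPKM in WT. Reads of the 2 genes may be shared between them.

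Ccnc, the cyclin of the Mediator kinase module, separated the lines fully. It stood at 7.65 and 7.34 FPKM in clone 2, at 17.7 and 20.1 FPKM in clone 1 and at 13.9, 14.7, 13.7 and 14.6 FPKM in WT, with ratios of 0.528 and 1.33. Ccne2, encoding the S-phase cyclin E2, had 5.49 and 6.76 FPKM in clone 2, 4.33 and 5.49 FPKM in clone 1 and 8.41, 4.42, 5.91 and 6.40 FPKM in WT. WT spanned the clone 2 values and one of the clone 1 values, and its clone 2 ratio of 0.975 was the one nearest to 1, inside a stretch whose next gene, Ints8, had 0.571. Ccne2 and Ints8 overlap by 5622 bases on opposite strands, and the sources used here do not say if the counting used strand.

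Trp53inp1, a stress protein gene that p53 induces, had the lowest clone 2 ratio among genes above 10 FPKM in WT. It stood at 24.4 and 20.7 FPKM in clone 2, at 102 and 79.4 FPKM in clone 1 and at 51.7, 63.0, 52.8 and 55.1 FPKM in WT. The 3 lines did not overlap, and the ratios to WT were 0.405 in clone 2 and 1.63 in clone 1. Cdkn1a, the p53-induced cell cycle inhibitor gene on chromosome 17, showed the same order with 18.5 and 15.3 FPKM in clone 2, 72.0 and 60.5 FPKM in clone 1 and 26.9, 41.7, 29.2 and 31.6 FPKM in WT. Limma gave Cdkn1a a log2 fold change of -0.88 (SE 0.18, adjusted p = 0.0281) in clone 2 and 1.03 (adjusted p = 0.017) in clone 1.

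**Figure D3:**
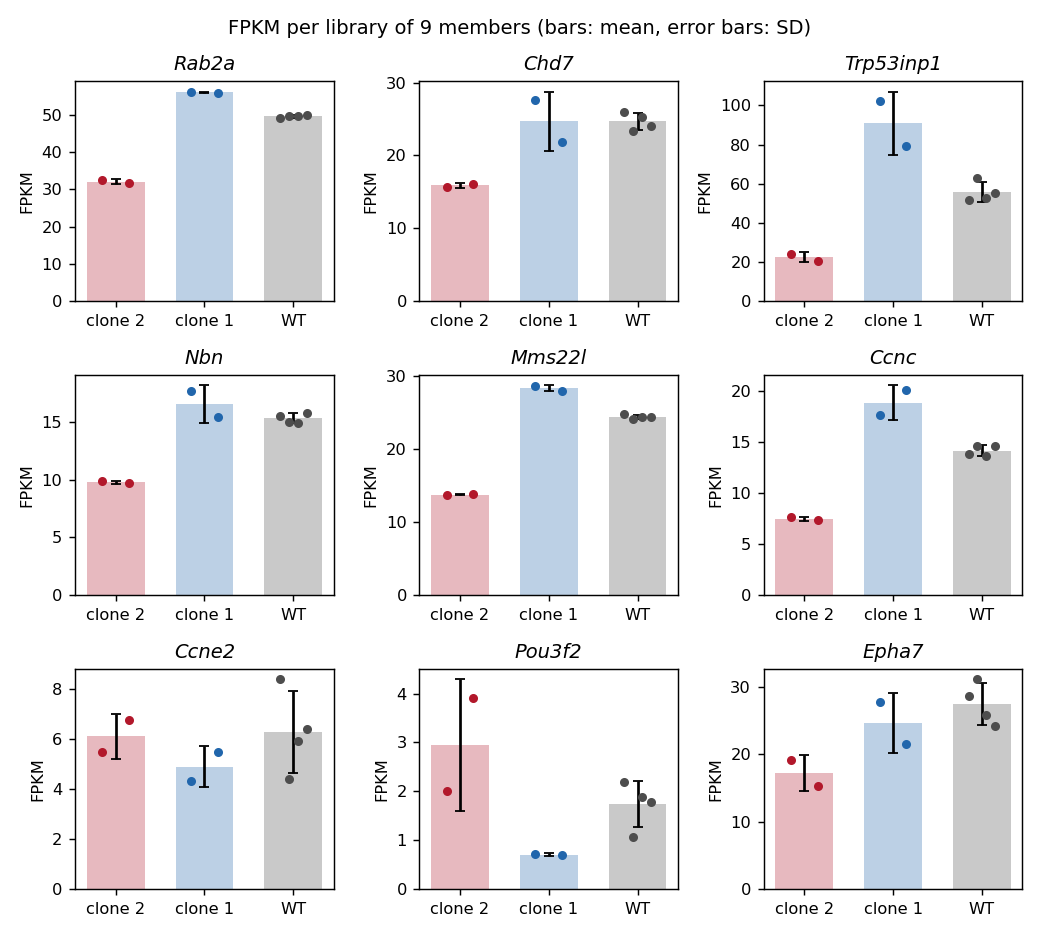
FPKM (vertical axes, from 0) of 9 genes of the stretch in clone 2, clone 1 and WT, with a point per library, bars for the mean and error bars for the SD (n = 2, 2 and 4). Clone 2 is lowest in 7 panels, such as Mms22l with a mean of 13.8 FPKM against 24.4 FPKM in WT, while Ccne2 overlaps between lines and Pou3f2 is lowest in clone 1.

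Genes of RNA processing were lower in clone 2 and higher in clone 1 than in WT. Pnisr, encoding a serine- and arginine-rich nuclear protein, had the highest WT mean of the 35 tested genes, at 38.3 and 41.9 FPKM in clone 2, at 111 and 93.0 FPKM in clone 1 and at 72.2, 78.1, 74.7 and 73.9 FPKM in WT. Ints8, a subunit of the Integrator complex that processes small nuclear RNAs, had 19.1 and 18.1 FPKM in clone 2, 39.6 and 37.1 FPKM in clone 1 and 31.8, 32.7, 32.2 and 33.4 FPKM in WT. The lines did not overlap for either gene, with clone 2 ratios of 0.537 and 0.571. Esrp1, an epithelial splicing regulator, had the lowest clone 2 ratio of all 35, 0.351, and the highest clone 1 ratio, 3.54. It stood at 0.557 and 0.567 FPKM in clone 2, at 6.75 and 4.57 FPKM in clone 1 and at 1.20, 2.67, 1.05 and 1.48 FPKM in WT, and it reached the mean of 1 FPKM through WT and clone 1. Cdh1, the epithelial cadherin gene on another chromosome, had the same order of lines, at 5.04 and 3.96 FPKM in clone 2, 24.6 and 19.8 FPKM in clone 1 and 6.39, 9.89, 5.87 and 7.40 FPKM in WT. The other epithelial markers examined, Krt8, Krt18, Cldn6 and Epcam, overlapped WT in clone 2. Krt8 had 10.15 and 7.77 FPKM in clone 2 and 6.16, 8.42, 6.96 and 7.06 FPKM in WT. In clone 1, Krt8, Cldn6 and Epcam lay above every WT library and Krt18 overlapped WT. The part of epithelial cells in the Esrp1 values was not tested.

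The mitochondrial genes formed a narrow group in clone 2. They were Ndufaf4 and Ndufaf6, which help assemble respiratory complex I, Coq3, a methyltransferase of coenzyme Q synthesis, Decr1, an enzyme of unsaturated fatty acid oxidation, and Fbxl4, an F-box protein that restrains mitophagy. Their clone 2 to WT ratios ran from 0.566 to 0.638 in all 5, with both clone 2 libraries below WT each time. In clone 1 their ratios ran from 1.07 for Decr1 to 1.64 for Coq3, with both libraries above WT in all 5. Ndufaf6 averaged 6.46 ± 0.161 FPKM in clone 2, 16.5 ± 0.532 FPKM in clone 1 and 11.2 ± 1.12 FPKM in WT (SD, n = 2, 2 and 4).

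Genes of membrane traffic and protein modification were as uniform. Rab2a, a small GTPase of traffic between the endoplasmic reticulum and the Golgi and the gene at one end of the stretch (chr4:8535644-8607778), stood at 32.5 and 31.6 FPKM in clone 2, at 56.1 and 55.8 FPKM in clone 1 and at 49.0, 49.6, 49.7 and 49.99 FPKM in WT. The 3 lines were separate and each was tight, with ratios to WT of 0.647 in clone 2 and 1.13 in clone 1. The 6 tested genes of this role, with Plekhf2 (an endosomal protein), Dpy19l4 (a mannosyltransferase relative), Manea (a Golgi endomannosidase), Asph (an aspartyl hydroxylase) and Cpne3 (a calcium-binding copine), had clone 2 to WT ratios of 0.616 to 0.664. Their clone 1 to WT ratios ran from 0.981 for Manea to 1.26 for Plekhf2.

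Ubiquitin and UFM1 genes varied more. Otud6b, a deubiquitinase gene, had 14.9 FPKM in each clone 2 library, 21.0 and 20.4 FPKM in clone 1 and 20.1, 18.8, 19.5 and 20.0 FPKM in WT. Its clone 2 ratio of 0.762 was one of the highest of the stretch although its replicates were tight. Ufl1, the ligase that attaches UFM1, the deubiquitinase gene Usp45 and the ligase gene Wwp1 had ratios of 0.622, 0.663 and 0.568 in clone 2 and of 1.30, 1.15 and 1.24 in clone 1.

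Among the remaining genes, Ripk2, a kinase downstream of NOD receptors, had the lowest clone 2 ratio, 0.511, at 1.94 and 1.55 FPKM, against 4.77 and 4.80 FPKM in clone 1 and 3.21, 3.79, 3.16 and 3.47 FPKM in WT. Mmp16, a membrane-bound matrix metalloproteinase gene, stood at 1.61 and 1.71 FPKM in clone 2, at 2.02 and 1.12 FPKM in clone 1 and at 1.92, 1.77, 2.40 and 2.55 FPKM in WT. Its clone 2 libraries were just below WT, with a ratio of 0.769, and its clone 1 libraries differed from each other. The other 4 were Osgin2, Tmem64, Faxc and Rmdn1, with clone 2 to WT ratios of 0.591 to 0.662 and clone 1 to WT ratios of 1.08 to 1.30.

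**Figure D4:**
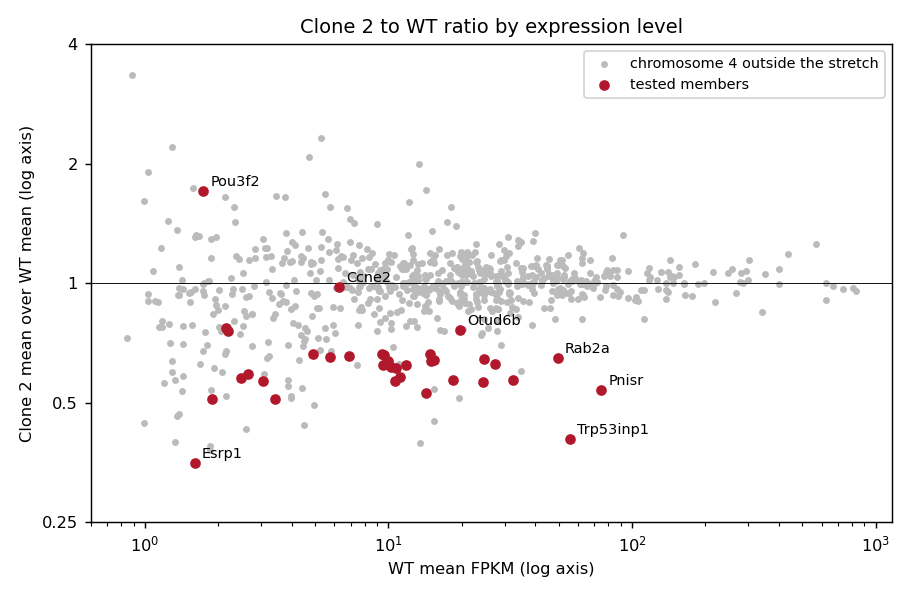
Ratio of clone 2 mean to WT mean (vertical axis, log) against the WT mean FPKM (horizontal axis, log) for the 35 tested genes of the stretch, in red, and for the other tested protein-coding genes of chromosome 4, in grey. Most red points form a band between 0.5 and 0.7 at every level, and the grey points scatter around 1.

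The other 10 genes stayed under the mean of 1 FPKM and entered no count. The lowest mean among those that passed was 1.76 FPKM for Fsbp, and the highest among those that did not was 0.713 FPKM for Gem, a small GTPase gene. Gem averaged 0.407 FPKM in clone 2, 0.774 FPKM in clone 1 and 0.836 FPKM in WT. Gdf6, a BMP family ligand, was at 0.197 and 0.260 FPKM in clone 2, at 0.511 and 0.403 FPKM in clone 1 and between 0.464 and 0.534 FPKM in the 4 WT libraries. Fut9, a fucosyltransferase that makes the Lewis X antigen of neural progenitors, averaged 0.461 FPKM in clone 2, 0.682 FPKM in clone 1 and 0.685 FPKM in WT. In Gem, Gdf6, Fut9 and Necab1 both clone 2 libraries were below all WT libraries. The share over all genes tested was 22.7%, which leaves out genes as low as these. In Necab1, with a mean of 5.36 reads in WT, both clone 1 libraries also lay below all WT libraries. Klhl32 averaged 0.453, 0.529 and 0.507 FPKM in clone 2, clone 1 and WT, and Necab1 0.0994, 0.114 and 0.150 FPKM. Calb1, encoding calbindin, was at most 0.230 FPKM in every library, and Prdm13, a regulator of dorsal neural identity, was at most 0.0681 FPKM, in a clone 1 library. Clvs1 and Cdh17 were at most 0.0402 and 0.00987 FPKM, and Fhl5 was listed at 0 in every library.

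Partners of these proteins that are encoded elsewhere in the genome were examined to see whether they changed too. In 15 lists, such as the other Integrator subunits or the other coenzyme Q enzymes, 132 partner genes outside the stretch were tested. Against WT, clone 2 had 4 of them lower (3.03%, with 6.96% of all genes) and 11 higher (8.33%, with 7.06% of all genes), and their median log2 fold change was 0.02. Clone 1 had 18 lower (13.6%, with 11.4% of all genes) and 5 higher (3.79%, with 4.16% of all genes), with a median of -0.08. These shares lie near the background. No share over all genes is given for the unadjusted counts that follow. Without clone 2 replicate 2 the number called by limma in clone 2 was 0, with 4 lower and 12 higher at an unadjusted p under 0.05, and without WT replicate 3 or WT replicate 4 it was 6.

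The partner lists with 0 genes called in clone 2 were the 7 MRE11 complex partners of Nbn, the 9 recombination partners of Rad54b and Mms22l, the 12 other complex I assembly factors, the 6 other Mediator kinase module genes, the 7 other CHD remodellers, the 9 BMP pathway genes, the 6 other NEDD4 family ligases and the 6 NOD pathway partners. Their median log2 fold changes ran from -0.07 to 0.03. Of their 62 tested genes limma put 7 lower and 4 higher at an unadjusted p under 0.05, again with no share over all genes given. By limma, of 13 other Integrator subunits 2 rose in clone 2, Vwa9 (log2 fold change 0.21, adjusted p = 0.0302) and Ints3 (0.15, adjusted p = 0.0473), and of 12 other coenzyme Q genes 1, Pdss1, rose (0.53, adjusted p = 0.00813). Among the other UFM1 genes Ufsp2 fell (-0.38, adjusted p = 0.048 by limma).

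Eph receptors and ephrins were the longest list. Of 16 tested, 4 rose in clone 2 (25%, with 7.06% of all genes) and 0 fell, and 1 rose and 5 fell in clone 1 (6.25% and 31.2%, with 4.16% and 11.4% of all genes), with median log2 fold changes of 0.17 and -0.12. Efnb1, an ephrin-B ligand gene on chromosome X, averaged 24.4 ± 3.45 FPKM in clone 2, 8.66 ± 0.401 FPKM in clone 1 and 14.7 ± 1.41 FPKM in WT (SD, n = 2, 2 and 4), and limma gave an adjusted p = 0.00741 for clone 2 and 0.0058 for clone 1 against WT. Efnb3 on chromosome 11 averaged 56.9 ± 7.12, 17.3 ± 0.365 and 34.6 ± 4.20 FPKM in clone 2, clone 1 and WT (limma adjusted p = 0.011 and 0.00375). Among 8 other POU genes 2 rose and 1 fell in clone 2, where Pou4f1, a sensory and retinal neuron factor gene, had a log2 fold change of 0.53 (limma adjusted p = 0.0367). Of 10 cyclin E partners only Cdkn1a passed in clone 2, and of 4 other copines Cpne1 fell (-0.27, limma adjusted p = 0.0131) and Cpne5 rose (0.85, limma adjusted p = 0.0143).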

How the data were processed

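Poly(A) RNA libraries (TruSeq v2, per the labels' protocols) of 2 clone 2, 2 clone 1 and 4 WT samples were analysed from the authors' table. The deposited unit is FPKM per library, per the file headers. The submitters' processing notes name TopHat2, Cufflinks, DESeq2, SAMtools and FastQC and the mouse builds mm10 and GRCm38, without roles. The authors' deposited mean read count per genotype, used as a signal of depth, was 110.5 to 9064 in WT for the tested genes (median 909.5). Read totals per library were not analysed here; relative to WT replicate 1, depth estimated from the smallest FPKM steps was 0.986 to 1.20. Headers give the clone of each mutant column but no sample title. No batch is labelled.

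The genes and lists were chosen with earlier results of these data known. Genes with a mean of at least 1 FPKM were fitted with limma 3.58.1 in R 4.3.3 (trend and robust moderation) on log2(FPKM + 1) in 3 groups, which understates changes of low genes; Benjamini-Hochberg adjustment ran over 14521 genes. The fit was tested on simulated data. The labels call the samples of a line biological replicates; p-values measure the spread between them, not that between independent clones. Coordinates and gene types are from GENCODE M21 (GRCm38), found for 45900 entries. Named genes are the end genes, the 5 lowest and 5 highest clone 2 ratios, the 5 highest WT levels, developmental, repair and cell cycle genes, and up to 2 called partners per list, of which some are not reported here; others, Cdh1 among them, were named after their values were seen. Values are mean ± SD over libraries.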

Additional observations from a re-analysis of the deposited data

Results flagged for a closer look

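In 23 of the 35 tested genes from Rab2a to Epha7, both clone 2 libraries lay below all 4 WT libraries while both clone 1 libraries lay above them, where 6.02% of all genes tested did so. The 2 lines thus moved opposite ways from the same WT libraries. This difference was not tested, because the genes were chosen with the ratios of both clone 2 and clone 1 to WT in view. Rab2a, Trp53inp1, Ccnc, Pnisr and Mms22l are among them.

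In WT, 1 library stood apart from the other 3 for 2 of the 35 genes examined this way. Ndufaf6 was at 9.49 FPKM in WT replicate 4, against 11.5 to 11.9 FPKM in the others, and Osgin2 was at 9.86 FPKM in the same library, against 10.9 to 11.1 FPKM. Chance marks about 1 in 20 such groups. Both genes remained lower in both clone 2 libraries than in that WT library, at 6.35 and 6.58 FPKM for Ndufaf6 and 6.93 and 6.17 FPKM for Osgin2.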

How the results depend on the processing

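The median log2 fold change of the 35 tested genes kept its sign in both lines under every alternative run. In clone 2 against WT it was -0.60, between -0.61 and -0.58 when each library was left out, and -0.68 with a pseudocount of 0.1. In clone 1 against WT it was 0.21, between 0.14 and 0.30 when each library was left out, and 0.26 after rescaling the libraries by their median ratio, which put the median of all genes at 0.00, against -0.05. The number called lower in clone 2 was 30, and 14 to 30 when each library was left out; that called higher in clone 1 was 13, and 7 to 12. Counts over all genes moved more. Called in clone 2 against WT were 2036 genes, 1160 without a filter on low values and 172 to 2425 when each library was left out. In clone 1 against WT they were 2266, 1506 without a filter and 438 to 3091. In clone 2 against clone 1 they were 5794, 3674 in a fit of these 4 libraries alone and 3099 to 5904. Partner genes called numbered 15 in clone 2, 27 after rescaling and 0 to 22 when each library was left out, and 23 in clone 1, 13 without a filter and 4 to 38. Over all genes, counts moved by over 1.5 times without clone 2 replicate 2, WT replicate 2, 3 or 4 (172, 1292, 1078 and 759) in clone 2, and without clone 1 replicate 2 or WT replicate 1, 3 or 4 (438, 1077, 1029 and 1008) in clone 1. The cause of these shifts was not tested, beyond the fewer samples of each reduced fit. Of 420 comparisons of a single gene with its value under an alternative, 393 in clone 2 and 372 in clone 1 kept their call, and 0 called changes turned round. A lone clone library was assumed to vary like the other groups. No paired analysis was possible because the mutant columns are numbered within a clone and could not be tied to the numbers in the sample titles.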

Other observations

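Stretches of like size elsewhere gave a setting for the values on chromosome 4. Tested protein-coding genes outside the stretch were divided into 324 runs of 35 consecutive genes, sharing no gene, along the chromosomes. The run at chr4:3549041-40239828 is an exception, since it joins genes from both sides of the stretch. The median log2 fold change of clone 2 against WT ran from -0.21 to 0.13 over these runs, against -0.60 for the 35 tested genes from Rab2a to Epha7. For clone 1 against WT it ran from -0.18 to 0.51, against 0.21 for those 35 genes. The 35 were chosen with both ratios in view and are not all consecutive, so nothing is read from their place beside the runs. All 46 tested protein-coding genes of the stretch had medians of -0.59 for clone 2 and 0.17 for clone 1. The run with both the lowest clone 2 and the highest clone 1 median lay on chromosome 13 (chr13:23418361-28953713), where 16 of its 35 genes were histone genes.

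The summed FPKM of the 45 genes was 318 and 309 in the clone 2 libraries, 695 and 604 in the clone 1 libraries and 522 to 543 in the WT libraries.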
